A study of Mus musculus with 123 samples.

Results

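The comparison set mice kept awake in their rest phase against mice left alone in their active phase, using messenger RNA of the cerebral cortex. The enforced group, T30, held 3 libraries from mice handled gently for 6 h from light onset and killed at the end of the handling, at zeitgeber time 6 (ZT6, hours after lights on). The spontaneous group, ZT18, held 5 libraries from undisturbed mice killed in the middle of the dark phase, when mice are mostly awake. These 8 libraries, of 62 RNA columns in the series, were taken by their labels, and all 13842 genes of the deposited table entered. Another group of 5 undisturbed mice at ZT6 served to predict what time of day alone would give. All mice were male C57BL/6J, an inbred strain, 11 to 12 weeks old, on a 12 h light and 12 h dark cycle with free access to food, and each library came from 1 animal. The files hold no sleep recording, so the wakefulness of the ZT18 mice rests on the time of day. T30 and ZT18 differed at once in clock phase, in light, and in whether wake was enforced by handling, and these cannot be told apart in this pair of groups alone.

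Waking neurons fire and transmit more, and their activity switches on immediate early genes, transcription factors induced within minutes without new protein synthesis, which then drive slower effector genes for synapses and secreted peptides. In parallel, every cortical cell carries a circadian clock, in which CLOCK and ARNTL (BMAL1) activate Per, Cry and Nr1d genes that feed back on them, and clock-controlled bZIP factors such as DBP, TEF and HLF pass the rhythm on. A nocturnal mouse builds up sleep need in the dark and discharges it in the light, so forced wake in the light meets a clock that is set for rest.

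Levels are the authors' log2 values with a small offset, so a difference of 1 is a doubling, and levels are compared between libraries and not between genes. Differences are estimates of a linear model over all RNA libraries (limma) with a term for the labelled batch, with a standard error (SE). A gene was called when its p, adjusted by the Benjamini-Hochberg method over all genes, was below 0.05. The 3 T30 libraries were of batch 1, ZT18 and ZT6 had 3 libraries of batch 1 and 2 of batch 2 each, and batch 2 therefore gives no T30 value. Each RNA library had over 36 M mappable reads per the labels' protocols, and the median was 55 M. In cortex, a piece of tissue with many cell types, fewer cells of a type and less RNA per cell cannot be told apart. Of 12 excitatory neuron markers 2 were lower at T30, and their summed level, on the linear scale, was 1283 to 1364 at T30 against 1376 to 1491 at ZT18, with no overlap. The sum of 3 measured choroid plexus markers was 147 to 148 against 155 to 199, also with no overlap. The inhibitory neuron sum, with 2 of 11 markers higher, was 1603 to 1677 against 1499 to 1628, and the astrocyte sum 2651 to 2840 against 2623 to 2704, both overlapping. Sums for oligodendrocytes, their precursors, microglia, endothelium, mural cells, meninges, blood, striatum, and thalamus or hippocampus overlapped between the groups. No marker of the 13 lists averaged below 0 on the log2 scale, and the part of cell composition in the results was not tested.

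T30 and ZT18 cortex differed in 924 of 13842 genes (6.68%), of which 471 were higher at T30 (3.40%) and 453 lower (3.27%). The differences were mostly small: the median called rise was 0.31 and the median called fall -0.25 on the log2 scale, and only 18 genes passed a difference of 1. Past 0.5, 92 genes were higher and 32 lower. All T30 libraries lay above all ZT18 libraries in 8.32% of the genes tested and below them in 8.12%, and 441 of the 471 and 424 of the 453 called genes were of this kind. By contrast, undisturbed mice differed between ZT6 and ZT18 in 4110 genes (29.7%), and T30 differed from undisturbed ZT6 mice in 4372 genes (31.6%), although T30 and ZT6 mice were killed at the same hour of the light phase. The median difference over all genes was 0.00 in each of the 3 comparisons. Within batch 1 alone, 252 genes were higher and 277 lower at T30 than at ZT18. Single libraries carried weight in these counts: without T30 replicate 4 there were 209 higher and 225 lower genes, without T30 replicate 1 327 and 238, without T30 replicate 3 291 and 297, and without ZT18 replicate 3 399 and 287.

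If only time of day separated T30 from ZT18, each gene would repeat its ZT6 minus ZT18 difference. A called gene was therefore termed predicted where ZT6 minus ZT18 was called in the same direction, not predicted where it was not called, and opposite where it was called the other way. T30 minus ZT6 is the observed minus the predicted difference and was the test of departure. Both differences use the same ZT18 libraries, which pulls them together. Of the 471 genes higher at T30, 89 (18.9%) were predicted, 293 (62.2%) not predicted and 89 (18.9%) opposite. Of the 453 lower genes, 140 (30.9%) were predicted, 262 (57.8%) not predicted and 51 (11.3%) opposite. Over all genes ZT6 minus ZT18 was called higher in 14.3% and lower in 15.4%. The shares of higher genes in the predicted and opposite classes were thus a few points above those of all genes. Of the lower genes, 30.9% were predicted beside 15.4% of all genes, and 11.3% were opposite beside 14.3%. The shared ZT18 libraries add to the predicted shares. T30 minus ZT6 was not called in 81 of the higher and 117 of the lower predicted genes, which does not show that they were at the ZT6 level. Of the genes not predicted, 248 of the higher and 209 of the lower also departed from ZT6 by test, while 45 and 53 did not and so stay between classes. Leaving out T30 replicate 4 reduced the classes to 48 predicted, 136 not predicted and 25 opposite among higher genes, and to 83, 118 and 24 among lower genes.

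**Figure D1:**
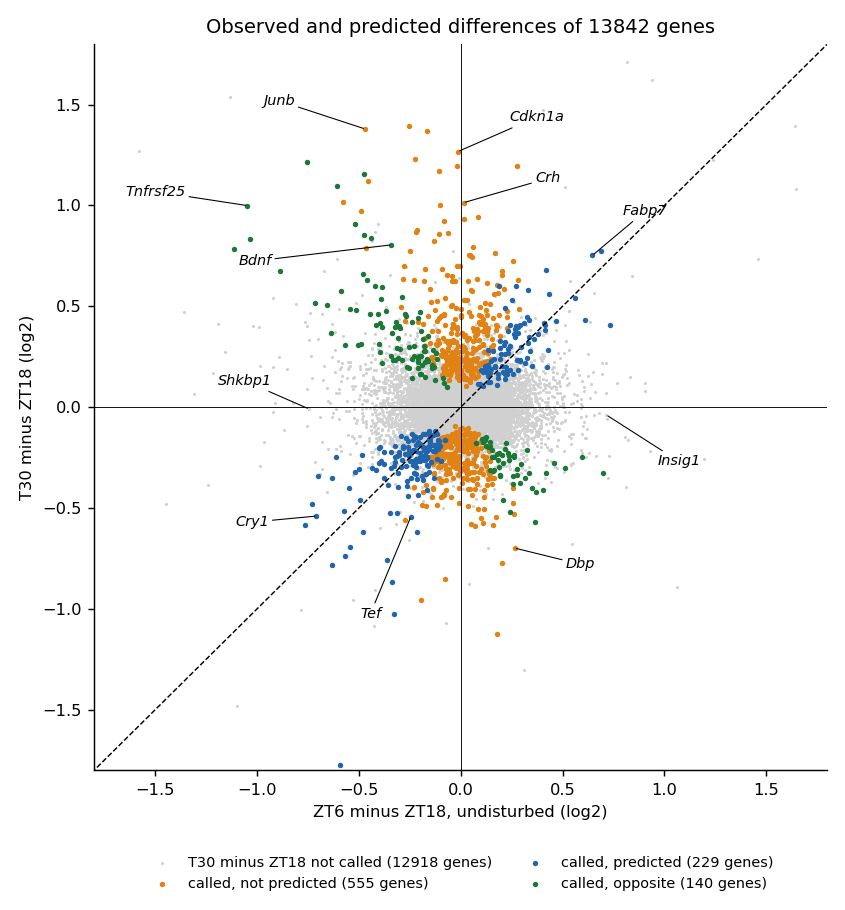
Each point is 1 gene, with the undisturbed ZT6 minus ZT18 difference on the x axis and T30 minus ZT18 on the y axis, both in log2 units from the linear model; the dashed line is where observed equals predicted, and 1 gene lies outside the axes. The 555 genes not predicted stand above and below the middle, the 229 predicted genes along the dashed line, and the 140 opposite genes in the upper left and lower right.

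When the 2 differences were built from separate animals, T30 and ZT18 of batch 1 against ZT6 and ZT18 of batch 2, they were all but unrelated across the 13842 genes (Pearson r = -0.04, Spearman rho = -0.03, a description, since genes are not independent). In that fit 331 genes were higher and 382 lower at T30. The batch 2 mice had higher ZT6 estimates in 47.7% of the genes higher at T30, beside 51.2% of all genes, and lower ZT6 estimates in 51.6% of the lower ones. By calls, 72 of the 713 genes were predicted, 51 opposite and 590 not predicted. That fit called ZT6 minus ZT18 in 9.41% of all genes over both directions, 609 higher and 694 lower. A predicted gene must match in direction, so 9.41% is not the share to set beside the 72. The shares by direction are 609 and 694 of 13842 genes. Both the 72 predicted and the 51 opposite of 713 lie above either share. The batch 2 difference rests on 2 ZT6 and 2 ZT18 libraries, and the part of noise in the low correlation was not tested.

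Among the 21 functional lists, immediate early transcription factors had the largest median difference. Of 21 measured members, 10 rose and none fell at T30 relative to ZT18 by limma, beside 3.40% and 3.27% of all genes. At an unadjusted p below 0.05, 16 were higher and 0 lower. For such list counts no share of all genes is given in this report. The median difference was 0.78, beside 0.00 over all genes. The undisturbed ZT6 minus ZT18 difference ran the other way, with 11 lower (15.4% of all genes), none higher (14.3%) and a median of -0.47. None of the 10 rises was thus predicted: 6 were not predicted and 4 opposite. Against ZT6 itself, 18 of the 21 were higher at T30. Junb, an AP-1 subunit, read 6.41, 6.22 and 6.28 at T30, and 5.80, 4.38, 5.45, 4.15 and 4.98 at ZT18. The T30 mice were alike and all above the ZT18 mice, which spread widely. Its difference was 1.38 (SE 0.41, adjusted p = 0.0287), a 2.60-fold rise, and 1.10 (adjusted p = 0.166) within batch 1. Nr4a1, an orphan nuclear receptor induced by neuronal activity, was at 7.47, 7.14 and 7.40 at T30 against 6.82, 5.82, 6.57, 5.55 and 5.95, and the same ZT18 libraries, replicates 2 and 4, were highest. It rose by 1.21 (SE 0.35, adjusted p = 0.0247) where the prediction was -0.75, and by 0.93 (adjusted p = 0.166) within batch 1. Npas4, a factor that responds to calcium entry and shapes inhibitory synapses, rose by 0.97 (SE 0.31, adjusted p = 0.0431), from 3.26 to 4.09 at ZT18 to 4.62 to 4.93 at T30.

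Further members rose as well. Fosb, whose stable splice form accumulates with repeated activity, was at 4.08, 3.82 and 4.11 at T30 and at 3.17, 3.04, 2.77, 2.84 and 2.75 at ZT18. All T30 values also exceeded every one of the 26 undisturbed libraries of the day. Fosb differed by 1.10 (SE 0.21, adjusted p = 0.000355), Fosl2 by 0.84 (SE 0.17, adjusted p = 0.00117) and Klf2 by 0.78 (SE 0.15, adjusted p = 0.000659), each above the whole undisturbed day. Klf10, Klf4, Btg2 and Ier5 rose by 0.93, 0.70, 1.00 and 0.54. Fos, the best known of the group, had the largest estimate of the 21 at 1.54 (SE 0.53) and did not pass (adjusted p = 0.068), with 6.36, 5.93 and 6.02 at T30 against 5.39, 4.28, 4.96, 3.90 and 4.45. Egr1, needed for late-phase plasticity, stood at 8.34 to 8.59 at T30 and 7.84 to 8.48 at ZT18, overlapping (difference 0.40, adjusted p = 0.478), while both groups were above most ZT6 mice at 6.35 to 7.95. Jun, Jund and Fosl1 differed by -0.18, 0.07 and -0.01 and were not called. The count of 10 fell to 5 without T30 replicate 1 or 4, to 6 without ZT18 replicate 3 or 7, to 5 in batch 1 alone and to 6 with the 3 groups fitted alone. Junb, Nr4a1, Npas4 and Btg2 lost their call in 7 to 13 of 21 other settings, Klf10 in 1, and Fosl2 and Ier5 in none.

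Effector genes follow the early factors. Of 20 activity-regulated effectors 16 rose and none fell (18 and 0 at an unadjusted p below 0.05), beside 3.40% and 3.27% of all genes called. The median difference was 0.68. In 10 of the 20 all T30 values were above every undisturbed library, a state found in 2.01% of all genes. Only 1 of the 16 was predicted, 12 were not predicted and 3 were opposite. Cdkn1a, the cell cycle inhibitor p21 that neurons also induce with activity and stress hormones, read 5.17, 5.19 and 5.40 at T30 and 4.02, 4.23, 3.78, 4.04 and 3.85 at ZT18. Undisturbed ZT6 mice were no different from ZT18 mice, at 3.86, 4.51, 3.78, 3.86 and 3.84, so that no difference was predicted. The rise was 1.27 (SE 0.17, adjusted p = 1.06e-06), or 2.41-fold, and 1.24 within batch 1. Bdnf, the neurotrophin whose release strengthens synapses, was at 4.91, 4.99 and 5.11 at T30 against 4.16, 4.35, 4.09, 4.36 and 4.03 at ZT18 and 3.52 to 4.19 at ZT6. T30 was 0.80 (SE 0.11, adjusted p = 2.45e-06) above ZT18, without overlap. ZT6 was below ZT18 by limma (-0.34, adjusted p = 0.00485), although the libraries of these 2 groups overlapped. Undisturbed ZT0 mice averaged 4.36 and ZT18 mice 4.20, and the part of wake in the order of these groups was not tested. Sik1, Trib1 and Ptgs2 rose by 1.12, 1.02 and 0.92, Nptx2, a pentraxin that gathers AMPA receptors, by 0.86, Inhba, an activin subunit, by 0.82, and Tiparp, an ADP-ribosyltransferase, by 0.88. Nrn1 rose by 0.33 and was the predicted one, with a ZT6 minus ZT18 difference of 0.22. Homer1, a postsynaptic scaffold widely used as a transcript marker of sleep need, was at 7.99, 7.95 and 8.20 at T30 against 7.54 to 7.77 at ZT18, above all undisturbed mice, yet its difference of 0.40 (SE 0.15) did not pass (adjusted p = 0.0965). Arc, which tunes AMPA receptor uptake, had the estimate farthest from 0, 2.00 (SE 0.66), and missed the threshold too (adjusted p = 0.0533), with 8.21 to 8.55 at T30 against 4.92 to 7.68 at ZT18. The count stayed between 13 and 17 when single libraries were left out and was 13 in batch 1 alone.

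**Figure D2:**
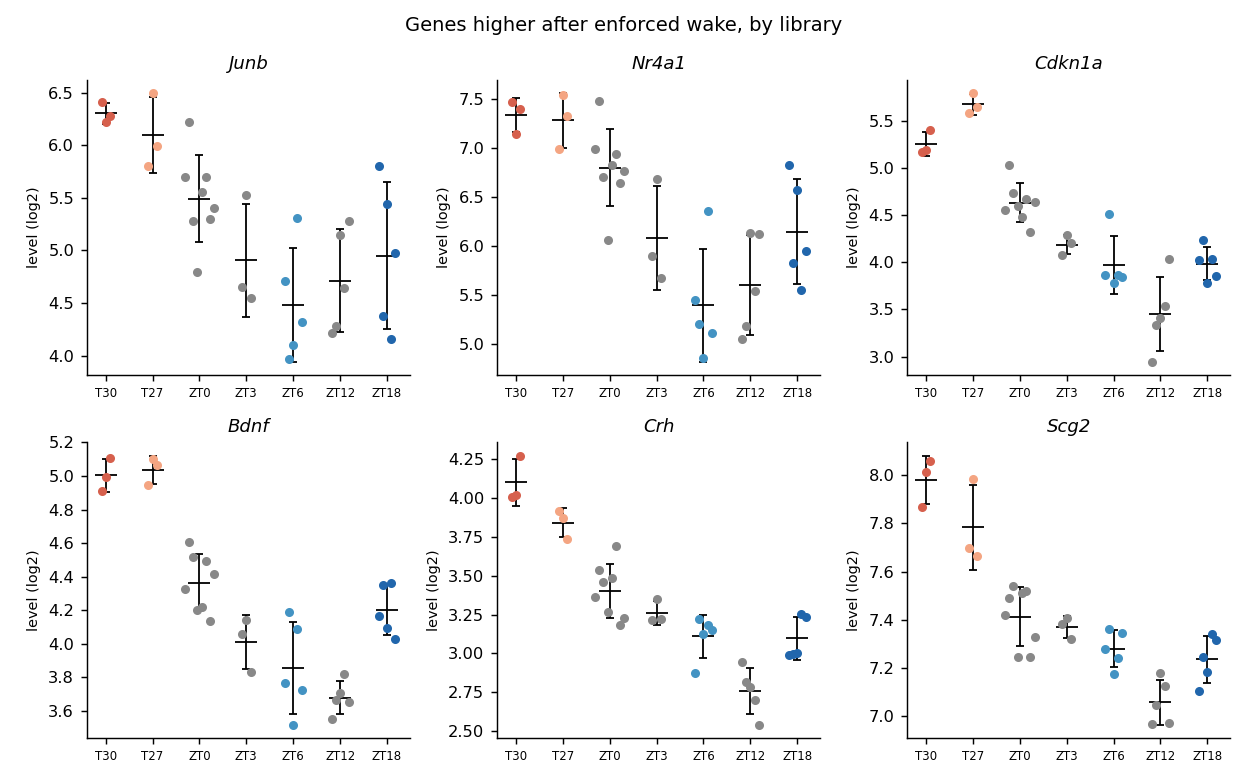
Deposited log2 level (y axis) of 6 genes by group (x axis), 1 point per library, with the mean as a horizontal bar and 1 SD as the error bar; T27 and T30 are the enforced groups after 3 h and 6 h, and ZT0 to ZT18 are undisturbed. Junb at ZT18 spread from 4.15 to 5.80 below T30 at 6.22 to 6.41, while Cdkn1a, Bdnf, Crh and Scg2 at T30 lay above every undisturbed library.

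Feedback inhibitors of MAP kinase signalling are themselves induced by the pathway and switch it off. Of 14 measured, 5 rose and none fell (9 and 0 at an unadjusted p below 0.05), with a median of 0.23, and none of the rises was predicted. Dusp1, a nuclear phosphatase for MAP kinases, was at 6.10, 5.84 and 5.81 at T30 and at 5.03, 3.88, 5.41, 3.75 and 4.80 at ZT18. As for Junb, ZT18 replicates 3 and 7 were the lowest. The rise was 1.37 (SE 0.41, adjusted p = 0.0313), and 1.14 (adjusted p = 0.155) within batch 1. Dusp5, specific for ERK, rose by 1.23 (SE 0.24, adjusted p = 0.000524) and kept its call in all 21 other settings. Dusp4, Dusp6 and Spry4 rose by 0.68, 0.79 and 0.57. The count of 5 was 1 without T30 replicate 4, within batch 1 and with the 3 groups alone, 2 without T30 replicate 1 or 3 or ZT18 replicate 3 or 7, and 3 without low genes, beside 3.40% of all genes called higher.

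The cyclic AMP response element, or CRE, is the site through which CREB drives many activity genes, and its full palindrome TGACGTCA was searched on both strands in RefSeq promoter windows (GRCm38.p6, 250 bases before to 50 after each start). Windows were at hand for 10251 of the 13842 genes, with some genes having several, and a match describes the letters only. It was present in 21 of 357 genes higher at T30 (5.88%), in 4 of 338 lower genes (1.18%) and in 366 of all 10251 (3.57%). Among the opposite risers, which fall from ZT18 to ZT6 in undisturbed mice, it was present in 7 of 68 (10.3%), and among the predicted risers in 2 of 73 (2.74%). The 4 named genes that rose and carry it are shown as the 250 bases before the start, with the match in capitals: Dusp1 (chr17:26508473-26508722, minus strand, match 143 to 136 bases before the start), Btg2 (chr1:134079156-134079405, minus, 166 to 159), Dio2 (chr12:90739039-90739288, minus, 95 to 88) and Arl4d (chr11:101665291-101665540, plus, 26 to 19).
Dusp1: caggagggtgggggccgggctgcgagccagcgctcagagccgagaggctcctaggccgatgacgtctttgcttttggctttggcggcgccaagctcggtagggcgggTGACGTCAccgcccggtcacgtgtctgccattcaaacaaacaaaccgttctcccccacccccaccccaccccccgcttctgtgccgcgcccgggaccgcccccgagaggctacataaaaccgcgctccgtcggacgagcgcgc
Btg2: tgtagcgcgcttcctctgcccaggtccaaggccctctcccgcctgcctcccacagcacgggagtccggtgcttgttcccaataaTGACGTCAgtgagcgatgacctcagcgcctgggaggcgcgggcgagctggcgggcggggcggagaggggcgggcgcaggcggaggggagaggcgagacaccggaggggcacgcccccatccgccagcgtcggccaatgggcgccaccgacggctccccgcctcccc
Dio2: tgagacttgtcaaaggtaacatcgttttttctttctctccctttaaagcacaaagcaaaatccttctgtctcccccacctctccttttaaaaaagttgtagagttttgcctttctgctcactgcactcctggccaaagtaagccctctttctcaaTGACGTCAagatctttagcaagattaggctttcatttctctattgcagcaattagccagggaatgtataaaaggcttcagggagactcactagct
Arl4d: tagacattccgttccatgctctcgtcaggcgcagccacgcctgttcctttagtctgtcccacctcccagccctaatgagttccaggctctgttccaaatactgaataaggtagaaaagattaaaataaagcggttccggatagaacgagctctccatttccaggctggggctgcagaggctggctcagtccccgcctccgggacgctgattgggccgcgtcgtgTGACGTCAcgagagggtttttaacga
Each holds 1 full palindrome, at a different distance from the start. Dio2, which activates thyroid hormone in glia, and Arl4d, a small GTPase, were both opposite genes. Dio2 was at 5.90, 5.69 and 5.99 at T30, at 5.16, 5.22, 5.20, 5.38 and 5.33 at ZT18 and at 4.73 to 4.92 at ZT6, 3 levels without overlap. It rose by 0.60 (SE 0.09, adjusted p = 1.45e-05) over ZT18. Arl4d rose by 0.66 (SE 0.21, adjusted p = 0.0416) and lost its call in 9 of 21 other settings. Hlf, which fell, also holds a CRE in its window.

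Among neuropeptide and granin genes, whose products are released from dense-core vesicles, those that rose were not predicted by time of day. Of 15 measured, 7 rose and none fell (11 and 0 at an unadjusted p below 0.05), beside 3.40% and 3.27% of all genes called. The median was 0.24, while only 1 differed between ZT6 and ZT18, beside 29.7% of all genes. In 6 of the 15, all T30 values lay above the whole undisturbed day, beside 2.01% of all genes. Crh, corticotropin-releasing hormone, made in cortex by interneurons, was at 4.01, 4.02 and 4.27 at T30 against 2.99, 3.00, 3.00, 3.26 and 3.24 at ZT18. The groups did not overlap, while ZT6 mice at 2.87 to 3.22 overlapped with ZT18. Crh rose by 1.01 (SE 0.12, adjusted p = 6.68e-08), or 2.02-fold. Scg2, a granin of dense-core vesicles and precursor of secretoneurin, rose by 0.75 (SE 0.08, adjusted p = 1.22e-08), from 7.10, 7.24, 7.18, 7.34 and 7.32 to 7.87, 8.02 and 8.06. Vip, of interneurons that release pyramidal cells from inhibition, rose by 0.44 (SE 0.08, adjusted p = 9.01e-05), and Cort, the sleep-related cortistatin, by 0.65 (SE 0.16, adjusted p = 0.00785). Adcyap1 (PACAP) and Chgb rose by 0.58 and 0.19. Vgf, a BDNF-responsive peptide precursor, rose by 0.53 and was the opposite member, 0.39 lower at ZT6 than at ZT18. Other peptide genes of cortical neurons were not called: Sst differed by 0.04 (adjusted p = 0.805), Penk by 0.02, Pdyn by -0.05 and Tac2 by -0.05. The summed inhibitory neuron markers, which include Vip, overlapped between the groups at the values given above.

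Glucocorticoid-responsive genes were listed because handling can raise stress hormones. Of 19 measured, 5 rose and 1 fell, with a median of 0.23, beside 3.40% and 3.27% of all genes, and none of the 6 followed the prediction. Fkbp5, a co-chaperone that restrains the glucocorticoid receptor and is among its standard targets, was at 4.46, 4.36 and 4.67 at T30 against 4.07, 3.89, 4.05, 3.95 and 4.11 at ZT18. It rose by 0.49 (SE 0.11, adjusted p = 0.00379), and undisturbed ZT6 mice averaged 4.01, as did ZT18 mice. Tsc22d3 (GILZ) rose by 0.25 and Klf9 by 0.24. The other members that rose, Dusp1 and Cdkn1a, also respond to neuronal activity. Nr3c1, the receptor itself, fell by 0.21 (SE 0.06, adjusted p = 0.0123). Without T30 replicate 4 the count of 5 fell to 1, and it was 3 without T30 replicate 1 and in batch 1 alone. Without T30 replicate 1, or in batch 1 alone, Nr3c1 was not called. No hormone was measured.

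The clock separated the groups in both directions. Of 18 core clock genes 3 rose and 5 fell, and of 9 clock output genes 2 rose and 3 fell, and 6 of these 13 called genes were predicted, 6 not predicted and 1 opposite. Over all genes 3.40% rose and 3.27% fell. Without T30 replicate 1 the 5 core clock falls were 3, and the 2 output rises were 1 without T30 replicate 1 or 4 or ZT18 replicate 2, in batch 1 alone and with the 3 groups alone. Dbp, a bZIP factor driven by E-boxes and peaking late in the light phase, was at 5.52, 5.75 and 5.53 at T30 and at 6.40, 6.38, 6.37, 6.18 and 6.17 at ZT18. Time of day predicted no fall, since undisturbed ZT6 mice were at 6.39 to 6.74, while those of ZT0 and ZT3 were at 5.06 to 5.70 and 5.52 to 5.67, around the T30 values. Dbp fell by 0.70 (SE 0.13, adjusted p = 0.000177), the largest named fall, and stood 0.96 below ZT6. Its relatives Tef and Hlf fell by 0.54 (SE 0.06, adjusted p = 7.13e-09) and 0.52 (SE 0.06, adjusted p = 1.34e-07). Both falls were predicted in direction, by -0.24 and -0.35, and went beyond, with T30 lower than ZT6 by test. Tef read 7.45, 7.49 and 7.49 at T30, below all 26 undisturbed libraries. Nfil3, the bZIP repressor of the same DNA sites, moved the other way, from 3.16, 2.89, 3.06, 2.90 and 3.07 to 3.90, 3.75 and 3.96, a rise of 0.86 (SE 0.12, adjusted p = 2.1e-06) that was not predicted.

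Cry1, a repressor of CLOCK and ARNTL, fell as time of day predicts. It was at 3.39, 3.38 and 3.52 at T30, at 4.00, 4.07, 3.85, 4.04 and 3.89 at ZT18 and at 3.12, 3.46, 3.30, 3.40 and 3.02 at ZT6. T30 mice overlapped with ZT6 mice and not with ZT18 mice. Cry1 fell by 0.54 (SE 0.08, adjusted p = 5.89e-06), the prediction was -0.71, and T30 minus ZT6 was 0.17 and not called. Nr1d1 (REV-ERB alpha), a repressor of Arntl, rose by 0.41 (SE 0.11, adjusted p = 0.0163) where 0.73 was predicted, and stopped 0.33 short of ZT6 by test. Per3 fell by 0.44, against -0.21 predicted. Bhlhe41 (DEC2), a repressor at E-boxes known for a short-sleep allele in people, fell by 0.49 (SE 0.11, adjusted p = 0.00362), from 4.52, 4.53, 4.68, 4.57 and 4.80 to 4.16, 4.06 and 4.19. ZT6 mice were at 4.46 to 4.79, so this fall was not predicted, and like Dbp its T30 values lay among those of ZT0 (4.02 to 4.33). Arntl and Clock rose by 0.36 and 0.28, not predicted, and Arntl too was close to its ZT0 and ZT3 levels, 5.15 to 5.28 against 5.20 to 5.35. Per2, which responds to wake as well as to the clock, was at 4.28, 4.27 and 4.41, between ZT18 at 4.56 to 5.10 and ZT6 at 3.11 to 3.74. Its difference from ZT18 was -0.48 (SE 0.17, adjusted p = 0.0761) and not called, while it stood 0.97 above ZT6. Per1 overlapped with ZT18 at 5.87 to 6.16 against 5.17 to 6.02 (difference 0.51, adjusted p = 0.165).

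The E-box CACGTG, to which CLOCK and ARNTL bind, was present in 53 of 338 genes lower at T30 (15.7%), in 37 of 357 higher genes (10.4%) and in 1175 of all 10251 (11.5%). The D-box TTATGTAA, bound by DBP, TEF, HLF and NFIL3, was present in 6 of the 338 lower (1.78%), 1 of the 357 higher (0.28%) and 70 of all genes (0.683%). Dbp has neither in its window. The 3 named genes that fell and hold an E-box are shown as the 250 bases before the start, with the match in capitals: Cry1 (chr10:85185055-85185304, minus strand, 60 to 55 bases before the start), Bhlhe41 (chr6:145865421-145865670, minus, 153 to 148) and Tef, with 1 in each of 2 windows (chr15:81802423-81802672, plus, 127 to 122, and chr15:81811164-81811413, plus, 138 to 133).
Cry1: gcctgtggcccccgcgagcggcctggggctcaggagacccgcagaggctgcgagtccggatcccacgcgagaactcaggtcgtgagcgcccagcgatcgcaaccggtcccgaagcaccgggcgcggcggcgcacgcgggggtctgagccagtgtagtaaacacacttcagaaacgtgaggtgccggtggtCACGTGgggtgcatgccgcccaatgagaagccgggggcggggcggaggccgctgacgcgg
Bhlhe41: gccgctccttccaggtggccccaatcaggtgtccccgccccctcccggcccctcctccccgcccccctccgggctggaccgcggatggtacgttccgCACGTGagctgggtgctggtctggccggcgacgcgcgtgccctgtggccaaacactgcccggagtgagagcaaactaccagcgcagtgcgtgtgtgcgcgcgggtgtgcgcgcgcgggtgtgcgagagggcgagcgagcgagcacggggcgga
Tef, first window: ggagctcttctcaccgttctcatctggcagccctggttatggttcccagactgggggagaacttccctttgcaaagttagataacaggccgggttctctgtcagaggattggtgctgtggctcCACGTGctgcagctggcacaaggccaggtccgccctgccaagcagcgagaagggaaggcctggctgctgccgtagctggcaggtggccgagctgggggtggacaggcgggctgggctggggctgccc
Tef, second window: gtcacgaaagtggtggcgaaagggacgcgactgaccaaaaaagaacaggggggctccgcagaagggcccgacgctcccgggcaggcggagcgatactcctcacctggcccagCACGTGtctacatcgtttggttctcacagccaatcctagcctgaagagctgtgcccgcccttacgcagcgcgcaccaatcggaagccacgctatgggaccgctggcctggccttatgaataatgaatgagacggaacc
The 3 genes fell by a like amount, 0.49 to 0.54, but of the 3 only Cry1 had no call against ZT6. The motif was thus present in genes of different classes, and the Dusp1 window, of a gene that rose, holds it as well.

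**Figure D3:**
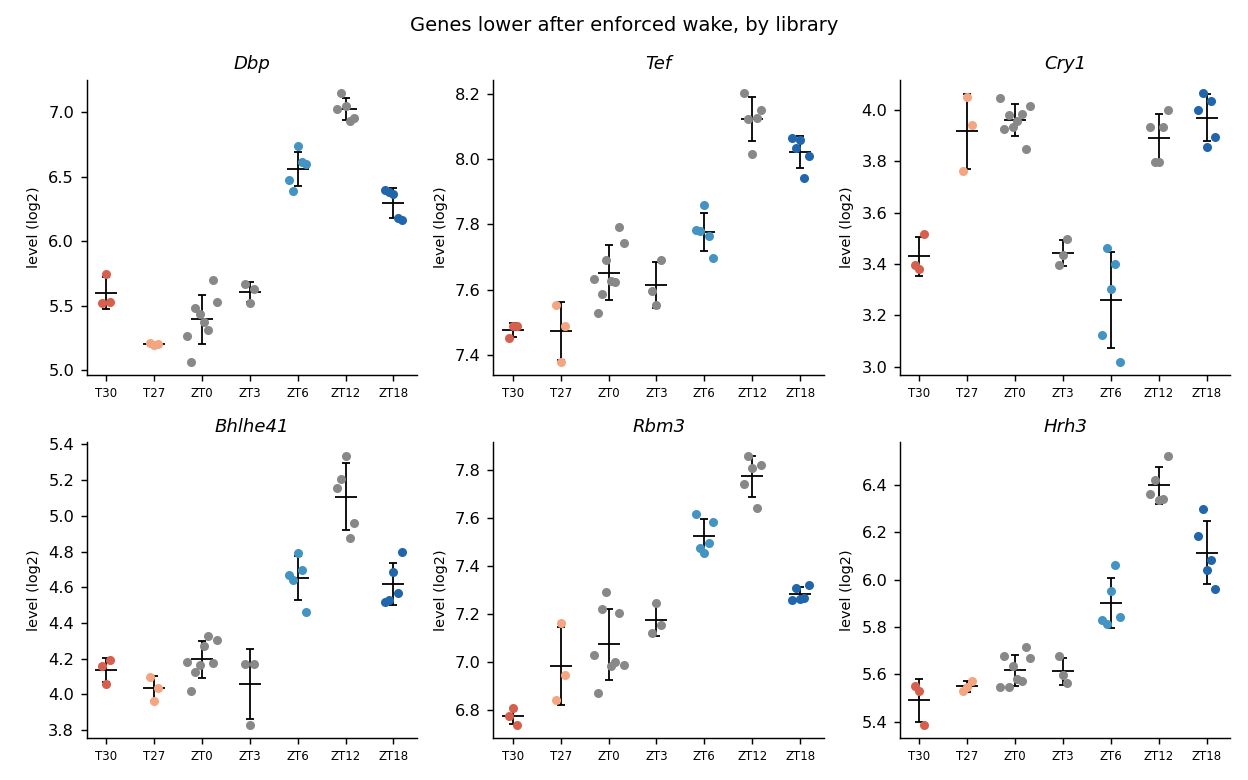
Deposited log2 level (y axis) of 6 genes by group (x axis), 1 point per library, with the mean as a horizontal bar and 1 SD as the error bar; T27 and T30 are enforced, ZT0 to ZT18 undisturbed. At T30 Cry1 lay at 3.38 to 3.52 with the ZT6 mice, whereas Dbp lay at 5.52 to 5.75 near ZT0 and ZT3, and Tef and Rbm3 lay below every undisturbed library.

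Among other falls, Rbm3 and Cirbp encode RNA-binding proteins induced by mild cooling, and their transcripts follow brain temperature. Rbm3 was at 6.78, 6.81 and 6.74 at T30, at 7.26, 7.31, 7.26, 7.27 and 7.32 at ZT18 and at 7.46 to 7.62 at ZT6. It fell by 0.52 (SE 0.09, adjusted p = 9.01e-05) where the prediction was a rise of 0.24. Cirbp stood at 6.01, 6.18 and 6.04 against 6.20 to 6.39, a difference of -0.24 (SE 0.08) that did not pass (adjusted p = 0.0598), although the prediction was 0.73. For both genes all T30 values were below the 26 undisturbed libraries, a state found in 1.54% of all genes. Hrh3, the histamine autoreceptor and heteroreceptor that damps the release of wake transmitters, fell from 6.19, 6.30, 6.04, 6.08 and 5.96 to 5.55, 5.53 and 5.39. Its fall of 0.62 (SE 0.09, adjusted p = 2.1e-06) went past the predicted -0.21. In the list of 25 receptors for arousal transmitters 1 rose and 2 fell, beside 3.40% and 3.27% of all genes, the others being Htr2a (0.34) and Htr1a (-0.41), both not predicted. Further falls of named genes in the not predicted class were Frzb, a secreted Wnt antagonist (-0.58), and Plk5, a neuronal polo-like kinase (-0.51). Ap1g2, an adaptor subunit of vesicle coats (-0.56), and Rarg, a retinoic acid receptor (-0.48), were of this class too. Both were also lower at ZT6 than at ZT18 by estimate (-0.28 and -0.19), without a call. Their T30 minus ZT6 was not called either, so they stay between classes. Ap1g2 and Rarg each lost their call against ZT18 in 2 of 21 other settings, and Plk5 in 1.

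The largest predicted rise among the genes named by rule was in Fabp7, a fatty acid binding protein of astrocytes whose transcript cycles across the day throughout the brain. It was at 5.39, 5.36 and 5.25 at T30, at 4.65, 4.59, 4.32, 4.69 and 4.63 at ZT18 and at 5.06, 5.07, 5.32, 5.37 and 5.28 at ZT6. T30 mice overlapped with ZT6 mice and not with ZT18 mice. Fabp7 rose by 0.75 (SE 0.13, adjusted p = 9.61e-05), the prediction was 0.65, and T30 minus ZT6 was 0.11 and not called. Batch 2 mice alone gave a ZT6 minus ZT18 difference of 0.67 for it. Further predicted rises without a call against ZT6 were Pmepa1, an inhibitor of TGF-beta signalling (0.58), Hkdc1, a hexokinase family member (0.43), Hes1, the Notch effector (0.41), and Dclk3, a kinase (0.39). Predicted falls were Plekho2 (-0.62), Cited4, a transcriptional coregulator (-0.52), Slc15a2, a peptide transporter (-0.46), Rac3, a small GTPase of neurons (-0.39), and Map2k6, a p38 kinase activator (-0.39). Plekho2 showed the pattern fully, with 3.10, 3.15 and 3.17 at T30, 3.05 to 3.42 at ZT6 and 3.63 to 3.92 at ZT18. Slc15a2 lost its call in 6 of 21 other settings, and the other predicted genes named in this paragraph lost it in none.

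Many more time-of-day differences did not appear between T30 and ZT18. Of the 4110 genes that differed between undisturbed ZT6 and ZT18, 2558 (62.2%) had a 95% confidence interval of T30 minus ZT18 that lay wholly within 0.25 log2 units of 0, termed at the ZT18 level. In 1729 of them T30 also differed from ZT6 by test, 865 where ZT6 was the higher and 864 where it was the lower. In the other 829 T30 minus ZT6 was not called, so they cannot be placed at 1 level. Insig1, which retains SREBP in the endoplasmic reticulum, was at 5.52, 5.47 and 5.34 at T30, 5.65, 5.25, 5.62, 5.31 and 5.55 at ZT18 and 6.09, 6.12, 6.20, 6.37 and 6.18 at ZT6. T30 fell within the ZT18 range, and both lay under all ZT6 mice. Its T30 minus ZT18 difference was -0.04 (95% interval -0.24 to 0.16), against a prediction of 0.71. On the other side Shkbp1, an SH3 kinase binding protein, was at 5.55, 5.42 and 5.38 against 5.70, 5.43, 5.48, 5.37 and 5.35 at ZT18, with a difference of -0.01 (95% interval -0.19 to 0.17) and a prediction of -0.74. Armcx5, Nrep, Rasl11b, Pak7 and Fbxl4 were higher at ZT6 than at ZT18 by 0.65, 0.63, 0.60, 0.59 and 0.59, and Serpinh1, Smox, Ankrd6, Cdk2ap2 and Sstr4 lower by -0.65, -0.63, -0.63, -0.60 and -0.49. Each of these 12 genes differed from ZT18 at T30 by estimates between -0.06 and 0.08, and T30 minus ZT6 was called in all 12. Both follow from the choice of the 12, by a T30 minus ZT18 interval near 0 and the widest ZT6 differences. They are examples and no further result.

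**Figure D4:**
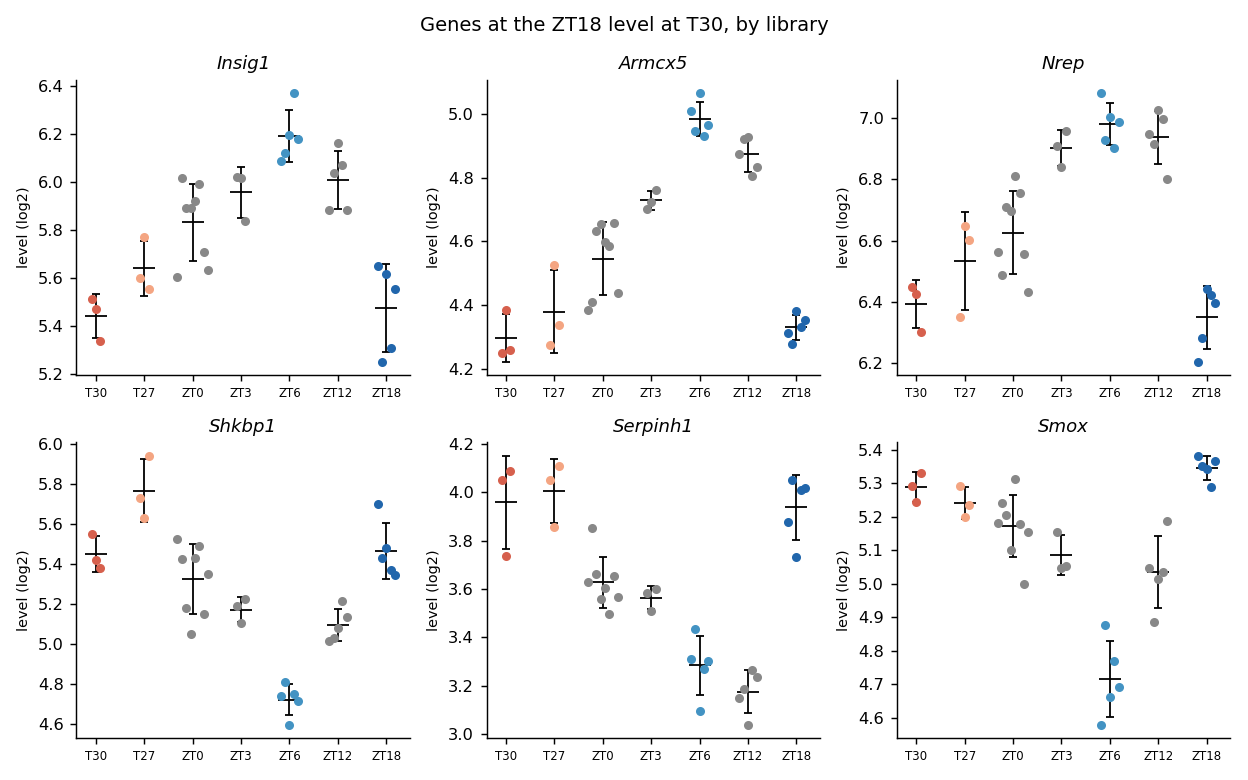
Deposited log2 level (y axis) of 6 genes by group (x axis), 1 point per library, with the mean as a horizontal bar and 1 SD as the error bar; T27 and T30 are enforced, ZT0 to ZT18 undisturbed. Insig1, Armcx5 and Nrep were high at ZT6 and equally low at T30 and ZT18, and Shkbp1, Serpinh1 and Smox showed the reverse. The 6 genes were chosen for this pattern.

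Chaperone and sterol genes differed widely between ZT6 and ZT18. At T30, 5 of 23, 6 of 22 and 8 of 24 members of the 3 lists met the rule for the ZT18 level. Only genes called at ZT6 minus ZT18 can meet it, and 62.2% of all such genes did. The endoplasmic reticulum list held 17 such genes, the heat shock list 14, and the sterol list 18 higher and 1 lower at ZT6. Each list thus met the rule less often than all such genes. By test, ZT6 minus ZT18 was higher in 14.3% of all genes and lower in 15.4%. T30 minus ZT6 was called higher in 2217 and lower in 2155 of 13842 genes. Of 23 endoplasmic reticulum chaperones and unfolded protein response genes, 17 were lower at ZT6 than at ZT18 and none higher (median -0.29), and 19 were higher at T30 than at ZT6. Against ZT18, 4 rose and none fell, with a median of 0.14. Hspa5 (BiP), the main chaperone of the compartment, was at 8.05, 7.92 and 7.96 at T30 and 7.65, 7.84, 7.65, 7.94 and 7.85 at ZT18, overlapping (difference 0.19, adjusted p = 0.423), with ZT6 at 6.77 to 7.23. Atf6, Creld2, Atf4 and P4hb rose over ZT18 by 0.27, 0.31, 0.19 and 0.14. In 7 of the 23 all T30 values were above the whole undisturbed day, beside 2.01% of all genes. Cytosolic heat shock genes gave the same order, with 14 of 22 lower at ZT6 than at ZT18, 14 higher at T30 than at ZT6, and 4 higher and 1 lower at T30 than at ZT18. Hspa8 and Hsph1, a constitutive HSP70 and its exchange factor, rose by 0.23 and 0.25, Hspa4 by 0.22 and Dnajb5 by 0.63, and Cryab fell by 0.35. Over all genes 3.40% rose and 3.27% fell. The counts rested on single libraries. Without T30 replicate 4, and in batch 1 alone, 1 heat shock gene was called higher and none lower, and without T30 replicate 1 or 3 or ZT18 replicate 2 or 3, 2 were called higher. With ZT6 replicate 3 or 4 left out 2 were called lower. Of the endoplasmic reticulum genes 2 were called higher without any 1 of the 3 T30 libraries. Of 24 cholesterol genes, 18 were higher at ZT6 than at ZT18 and 16 lower at T30 than at ZT6. Against ZT18 the median was 0.01, and Acat2, a thiolase at the start of the pathway, fell by 0.23.

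**Figure D5:**
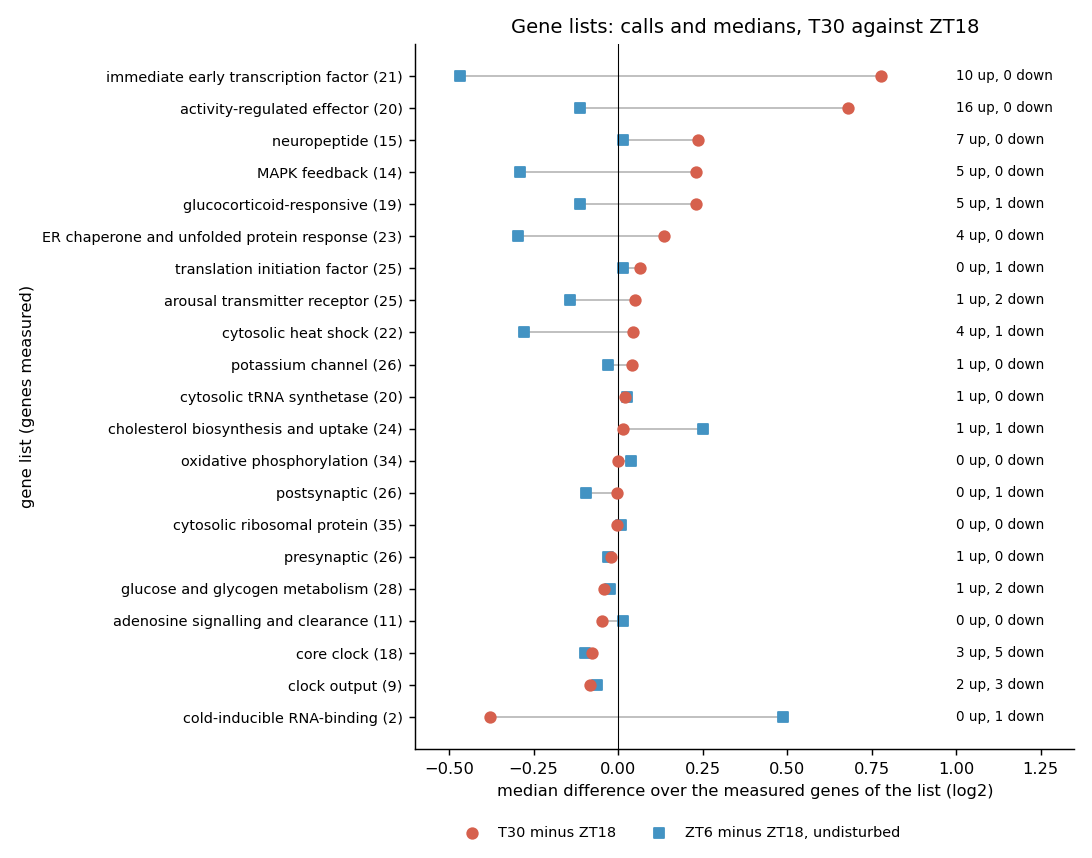
Median log2 difference (x axis) over the measured genes of each of 21 lists (y axis, number measured in parentheses), circles for T30 minus ZT18 and squares for the undisturbed ZT6 minus ZT18; the text at the right counts called members of T30 minus ZT18. Immediate early and effector lists lay at 0.78 and 0.68 with predictions of -0.47 and -0.11, while oxidative phosphorylation genes lay at 0.00 with a prediction of 0.04.

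Synaptic and metabolic lists had few called members. Of 26 postsynaptic genes 1 fell, of 26 presynaptic genes 1 rose (Nrxn3, 0.20), and of 26 potassium channel genes 1 rose (Kcnf1, 0.21), beside 6.68% of all genes called. None of 35 ribosomal protein genes, 34 oxidative phosphorylation genes or 11 genes of adenosine signalling and clearance was called by limma. At an unadjusted p below 0.05 there were 0, 2 and 3 such genes, and a missed call does not show equality. Adora1, the main inhibitory adenosine receptor of cortex, was at 6.91 ± 0.10 (SD, n = 3) at T30 and 6.88 ± 0.08 (SD, n = 5) at ZT18. In glucose and glycogen metabolism 5 of 28 genes were higher and 5 lower at an unadjusted p below 0.05, and 1 rose (Pfkp, 0.14) and 2 fell, Pfkm (-0.14) and Pdk2 (-0.34), an inhibitor of pyruvate dehydrogenase that lay below the whole undisturbed day. Among translation initiation factors the 4E-BP gene Eif4ebp1 fell by 0.33, and among cytosolic tRNA synthetases Eprs rose by 0.17. Of 12 markers of microglia 3 were lower, beside 3.27% of all genes, among them P2ry12 (-0.24) and Trem2 (-0.38), while the summed level of the list overlapped at 384.0 to 398.4 against 384.7 to 422.4.

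In the 140 opposite genes T30 lay on the far side of ZT18 from undisturbed ZT6. Tnfrsf25, a death receptor of the TNF family, rose by 1.00 (SE 0.27, adjusted p = 0.016) and was 1.05 lower at ZT6 than at ZT18. Kdm6b, a demethylase of repressive histone marks, rose by 0.60 (SE 0.17, adjusted p = 0.0208). Tnfrsf25 and Kdm6b each lost their call in 5 of 21 other settings, Dnajb5 in 1, and Fosl2, Bdnf, Dio2, Ier5 and Vgf in none. Rbm3 was the sole fall of this class among the 12 largest falls. Counted over all genes, every T30 value lay above all 26 undisturbed libraries in 278 genes (2.01%) and below them in 213 (1.54%). Of the genes called against ZT18, 177 of 471 and 124 of 453 were of this kind, and 117 and 76 of these were not predicted.

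Open chromatin from the same animals, measured by ATAC-seq, gave few called differences. Of 130727 peaks, 62 were higher at T30 (0.0474%) and 2 lower (0.00153%), in 3 T30 and 4 ZT18 libraries with 3.47 to 5.33 M reads in peaks. Between undisturbed ZT6 and ZT18 no peak was called by limma (0.00%), with 10173 peaks at an unadjusted p below 0.05 beside 11440 for T30 minus ZT18. The 64 called peaks (0.0490%) could therefore not be sorted by the prediction. T30 minus ZT6, which shares the T30 libraries, had 3405 called peaks (2.60%), of which 2847 higher (2.18%). The 62 higher peaks had a median signal of 12.6 at T30 and 5.46 at ZT18, beside 4.68 and 4.63 over all peaks. The largest, on chr7:135813203-135814092 (mm10), was at 12.5, 12.6 and 14.1 at T30 and at 3.84, 1.26, 7.59 and 4.18 at ZT18. It rose by 1.68 log2 units (SE 0.27, adjusted p = 0.000479). No promoter peak of any gene was called. At the promoters of 322 genes whose RNA rose and 309 whose RNA fell, the median peak difference was -0.03 and -0.09, beside -0.06 over 9302 genes. The promoter peak of Junb stood at 17.3 ± 1.6 (SD, n = 3) and 16.2 ± 4.1 (SD, n = 4), and that of Dbp at 30.0 ± 4.1 (SD, n = 3) and 34.1 ± 3.0 (SD, n = 4). The 62 depended on single libraries and settings: the count was 8 without T30 replicate 4, 15 without ZT18 replicate 4, 16 without T30 replicate 1, 25 without ZT18 replicate 8, 36 without T30 replicate 3, 39 without ZT18 replicate 3 and 128 without ZT18 replicate 2.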

How the data were processed

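RNA was measured by RNA-seq and open chromatin by ATAC-seq in cortex of the same mice. Per the submitters' processing notes, kallisto 0.43.0, sleuth 0.29.0, Bowtie2, MACS2 2.1.1, HTSeq 0.6.1 and bedtools 2.26.0 were used, with GRCm38 (mm10). The deposited RNA values are the authors' log2 levels, which from their floor carry an offset of 0.5, although 23 values, all in batch 2, lay below that floor. No label states if they are per transcript length. The deposited ATAC signal values are read counts divided by a library factor: multiplied back, 100% came out as whole reads (tolerance 0.02). From these values 1 linear model per assay was fitted over all groups with a batch term, in limma 3.58.1 (variance trend; R 4.3.3), ATAC values as log2 with the offset of 0.5, and p-values were adjusted over all features. The RNA fit left 44 residual degrees of freedom and the ATAC fit 41. Data of 13842 genes were simulated for T30 against ZT18. The RNA fit recovered 96 of 100 genes shifted by 0.5 and 100 of 100 shifted by 1, with 8 false calls. The shifted genes were drawn above the 25th percentile of mean level, with independent noise and no batch effect. Both shifts exceeded the median called sizes of 0.31 and -0.25, and smaller shifts were not simulated. The edgeR 4.0.16 quasi-likelihood test on recovered ATAC reads was an alternative.

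1 per-sample column of the deposited tables was not used. The column that merges 2 runs of 1 ZT0 animal counted as 1 sample. It was fitted as batch 1, although 1 of the 2 runs was of batch 2. Named genes were those called, with no overlap between T30 and ZT18, a mean above the 25th percentile (3.09) and a standard symbol, taken by size: 12 rises, 12 falls, 6 in each direction of the predicted genes without a call against ZT6 and of the not predicted genes, and 10 opposite genes, and the 12 genes at the ZT18 level with the widest ZT6 difference. Others come from the lists, and a few genes chosen by these rules are not reported here. The members, lists and rules were chosen with earlier results of these data known. Other settings tried were no batch term, the 3 groups alone, batch 1 alone, a replicate block, centring, the offset, a filter on low values, no trend, and each library left out.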

Additional observations from a re-analysis of the deposited data

Results flagged for a closer look

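In the ZT18 and ZT6 groups of 5, a library was set apart where its gap to the nearest other exceeded 0.71 of the group's range (Dixon's test at 95%). This held in 9 of 106 tests of named genes, and chance alone gives about 1 in 20. At ZT18, replicate 2 was apart for 3 genes: Hlf at 7.23 (others 7.38 to 7.43), Cited4 at 3.44 (others 3.71 to 3.77) and Ier5 at 5.93 (others 5.57 to 5.67). ZT18 replicate 4 was apart for Fabp7 at 4.32 (others 4.59 to 4.69) and Hkdc1 at 3.69 (others 3.53 to 3.57), and ZT18 replicate 8 for Rarg at 3.67 (others 3.12 to 3.25). At ZT6, replicate 3 was apart for Cdkn1a at 4.51 (others 3.78 to 3.86), and replicate 2 for Crh at 2.87 (others 3.12 to 3.22) and Pmepa1 at 4.57 (others 4.78 to 4.83). All 9 genes kept the direction of their T30 minus ZT18 difference in the 21 other settings tried, those without each library included.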

How the results depend on the processing

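None of the 54 genes named by rule changed sign in 21 other settings, and 39 kept their call in all of them. For the genes at the ZT18 level the call followed was ZT6 minus ZT18, and none of them lost it. For the others it was T30 minus ZT18, so all lost calls were of that difference. Without the batch term 564 genes were higher and 563 lower, with centring 438 and 590, with an offset of 2 479 and 448, without low genes 369 and 384, and without a variance trend 464 and 447. With the 3 groups alone 254 were higher and 228 lower, with 157 and 122 not predicted, 35 and 33 opposite, and 73 lower predicted. In batch 1 alone 252 and 277 were called, with 36 and 75 predicted, 17 and 10 opposite, 1206 higher and 1341 lower between ZT6 and ZT18, and 1368 genes at the ZT18 level. A margin of 0.5 put 3881 genes there. Replicate numbers did not pair the animals: residuals of same-numbered libraries had a median correlation of 0.01 over 7 pairs (-0.02 to 0.22), beside -0.01 over 32 other pairs. With the replicate block 309 genes were higher, 59 higher and 88 lower predicted, 25 and 19 opposite, and 7 and 0 peaks called, and 6 immediate early, 14 effector, 1 MAP kinase feedback, 3 glucocorticoid-responsive, 1 clock output, 2 heat shock and 1 endoplasmic reticulum gene rose. Leaving out each library gave 209 to 501 higher and 225 to 464 lower genes, of which 48 to 88 and 75 to 144 predicted, 136 to 323 and 118 to 297 not predicted, and 25 to 108 and 24 to 57 opposite. It gave 1597 to 2273 and 1618 to 2172 for T30 minus ZT6, 1581 to 2073 and 1614 to 2276 for ZT6 minus ZT18, 1920 to 2764 genes at the ZT18 level, and 8 to 128 and 0 to 10 peaks. For peaks, no batch term gave 99 higher and 13 lower, an offset of 2 172 and 8, leaving out low peaks gave 1 lower, and edgeR gave 42 higher and 1 lower. List counts under these settings were chosen after seeing the data. The cause of these shifts was not tested. With 3 T30 libraries in 1 batch, a small count rests on few animals, and a missed call does not show equal levels.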
